A study of Mus musculus with 4 samples.

Results

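The Krt79-gated cells of mouse skin are barcodes without a UMI (unique molecular identifier, 1 counted transcript) of Ptprc, the pan-leukocyte gene, and with at least 5 UMIs of Krt79, a keratin of the upper hair follicle and its ducts. They also had fewer than 2 UMIs of Lgr5 and Lhx2 together, genes of the lower follicle and its stem cells, and fewer than 5 UMIs of Krt35, a hair shaft keratin. The 4 libraries held 28847 barcodes, of which 27755 were kept for having 300 genes or more and no more than 15% of UMIs from mitochondrial genes, and 573 of these met the rule. The cells were thus selected on the measured counts of Krt79, Ptprc, Lgr5, Lhx2 and Krt35, so the level of Krt79 in these cells is given below as a description only.

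Each library pooled the neck and ear skin of 3 female C57BL/6J mice of 6 to 8 weeks, so the spread between animals was not measured. The treated libraries were oxazolone day 10, oxazolone day 16 and MC903 day 9, and the fourth library came from untreated mice. Oxazolone is a contact hapten, a small reactive compound that gives an allergic dermatitis in sensitised animals. It was given at 3% for sensitisation and, on alternate days, at 1.0% for challenges that started 7 days later. MC903 is calcipotriol, a vitamin D analog that gives mice a dermatitis, and it was applied daily for 9 days at 1 nmol in 100 µL. No library of vehicle-treated skin was analysed here, so effects of acetone, mineral oil or ethanol cannot be told apart from those of the agents. Since there was 1 library per group, differences between libraries have no replicate check and no test. Their intervals are 95% intervals for counting error only.

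The upper follicle lies between the bulge, where hair stem cells reside, and the skin surface. It holds the junctional zone, marked by Lrig1, and the openings of the sebaceous glands, in which basal cells mature into sebocytes that fill with lipid and burst to release sebum. Krt79 is known from the follicle canal and the sebaceous duct, and sebocytes are known for fatty acid desaturases, elongases, wax ester synthases and the lipid regulator Pparg.

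The label of these cells as upper follicle keratinocytes held in part. Of its 4 marker genes, Krt79 was set by the rule. Defb6, a beta-defensin, and Cst6, a protease inhibitor of cornifying epithelium, had at least 10 UMIs together in 11 of 108, 1 of 3, 10 of 48 and 107 of 414 cells (oxazolone day 10, oxazolone day 16, MC903 day 9 and untreated). Krt17, a keratin of follicle and wounded epidermis, had at least 10 UMIs in 38, 0, 0 and 26 cells. Genes of the sebaceous gland were far more widespread, so the cells are called Krt79-gated cells here. The 6 markers of T and innate lymphoid cells summed to at most 10.3 CPM (a gene's UMIs per 1000000 UMIs, both summed over the cells) in any library.

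The gate held 108 cells in the oxazolone day 10 library, 3 in the oxazolone day 16 library, 48 in the MC903 library and 414 in the untreated library. As a share of all cells kept, this was 1.30% (interval 1.07 to 1.57) with oxazolone day 10, 0.0379% (0.00782 to 0.111) with oxazolone day 16 and 1.25% (0.922 to 1.65) with MC903, against 5.38% (4.88 to 5.90) in untreated skin. The share was thus lower in all 3 treated libraries than in the untreated one, beyond counting error. Leukocytes filled part of the oxazolone libraries: cells without a Ptprc UMI made up 39.96% with oxazolone day 10, 21.7% with oxazolone day 16 and 73.3% with MC903, against 73.8% in untreated skin. Within those cells, the Krt79-gated share was 3.26%, 0.175% and 1.70%, against 7.28% in untreated skin. The digestion was chosen to favour fibroblasts, and fewer cells released from the tissue cannot be told apart from fewer cells in the tissue.

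**Figure D1:**
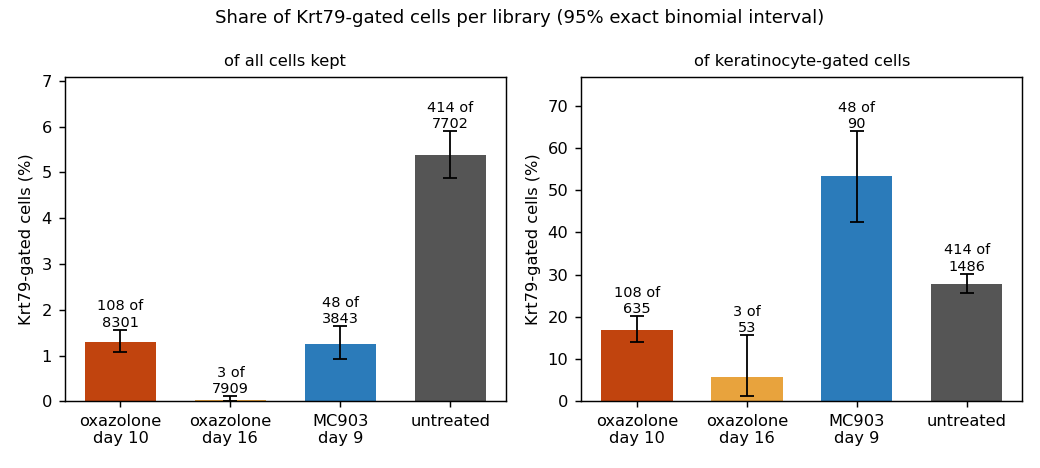
Krt79-gated cells as a percentage of all cells kept (left) and of keratinocyte-gated cells (right) in each library. Bars start at 0, error bars are exact binomial intervals for counting error, and the numbers above them are cells. The untreated bar is the highest at left (5.38%), whereas MC903 is the highest at right (53.3%).

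Against other keratinocytes, the order of the libraries was different. Of the cells in 4 keratinocyte gates (Krt79, Krt5 with Krt14, Krt1 with Krt10, Lgr5 with Lhx2), the Krt79 gate held 17.0% of 635 cells with oxazolone day 10, 5.66% of 53 with oxazolone day 16 and 53.3% of 90 with MC903 (interval 42.5 to 63.9), against 27.9% of 1486 in untreated skin (25.6 to 30.2). The MC903 library held few keratinocytes of any kind, with 36 cells in the Krt5 Krt14 gate and 6 in the Lgr5 Lhx2 gate. The limits on Lgr5, Lhx2 and Krt35 took 34 of 142, 5 of 8 and 1 of 49 cells from the treated libraries, and 8 of 422 from the untreated one. Cells just inside the threshold (5 or 6 Krt79 UMIs) numbered 16, 0, 4 and 71, and those just outside it (3 or 4 UMIs) 22, 1, 13 and 119. Their median sebaceous levels, as UMIs of 14 sebaceous gland genes per 10000 UMIs of a cell, were 17.6 inside and 11.2 outside with oxazolone day 10, 39.7 inside and 37.4 outside with MC903, and 42.9 inside and 42.6 outside in untreated skin.

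The cells were deeply sampled but unequally so. Median UMIs per Krt79-gated cell were 32474 with oxazolone day 10, 70043 with oxazolone day 16 and 52222.5 with MC903, against 22689 in untreated skin, and a fixed Krt79 threshold is easier to reach in a deeper cell. Fibroblast-gated cells, which serve as a background for free RNA, had medians of 22293.5, 34627 and 22775.5 UMIs in the treated libraries and 12462.5 in the untreated one. A single MC903 cell of 234360 UMIs carried 8.05% of that library's Krt79-gated UMIs. Libraries shared 5 to 16 barcodes in pairs, and no barcode was a Krt79-gated cell in more than 1 library. A preset number of cells with the highest doublet scores was marked in each library. Among Krt79-gated cells these were 6 (5.56%), 1 and 0 treated ones and 28 untreated ones (6.76%). Of all cells kept they were 6.64%, 6.32% and 3.07% in the treated libraries and 6.17% in the untreated one. The 6 fibroblast markers summed to 73.0, 20.3 and 168 CPM in the treated libraries and to 899 CPM in the untreated one, and the 6 neutrophil markers to 124, 375 and 50.8 CPM in the treated libraries and to 7.50 CPM in the untreated one, where Cxcr2 and Csf3r were at 0. The 6 melanocyte markers summed to 82.5, 20.3 and 25.4 CPM in the treated libraries and to 255 CPM in the untreated one. The 6 chondrocyte markers summed to 82.5, 0 and 18.9 CPM in the treated libraries and to 29.4 CPM in the untreated one, with Col2a1, Acan and Comp at least 2-fold higher with oxazolone day 10. The 6 muscle and mural markers summed to 5.55, 0 and 57.4 CPM in the treated libraries and to 28.1 CPM in the untreated one, with Acta2, Tagln and Myh11 at least 2-fold higher with MC903, where 1 cell carried 97.8% of the UMIs of Acta2, 97.8% of those of Tagln and 92% of those of Myh11. The part of this foreign RNA in the differences between libraries was not tested, except where values without fibroblast marker cells are given.

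Sebaceous gland genes ran through the gate. Per 10000 UMIs, the median Krt79-gated cell held 26.9 sebaceous UMIs with oxazolone day 10, 56.6 with oxazolone day 16, 62.7 with MC903 and 58.5 in untreated skin. In the Krt5 Krt14 gate, which stands for basal-type keratinocytes, the medians were 5.09, 8.02, 18.1 and 9.82 in the same order, and in the Lgr5 Lhx2 gate they were 2.98, 3.62, 2.19 and 2.71. Fibroblast-gated cells, which should lack these transcripts except those of general lipid metabolism, had 3.19, 4.08, 4.65 and 3.54. The medians of the Krt79 gate were thus the highest of the gates in every library.

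The gate was a mixture, and its makeup differed between libraries. A cell with at least 50 sebaceous UMIs per 10000 is called rich in sebaceous genes here, a limit set after the data were seen. Such cells made up 23 of 108 with oxazolone day 10 (21.3%, interval 14.005 to 30.2), 2 of 3 with oxazolone day 16 and 28 of 48 with MC903 (58.3%, 43.2 to 72.4), against 227 of 414 in untreated skin (54.8%, 49.9 to 59.7). Between 40 and 60 UMIs per 10000, close to that limit, were 14, 1 and 12 treated cells and 60 untreated ones. Cells with 10 or more UMIs of Cst6 plus Defb6 were also rich in sebaceous genes in 10 of 10 cases with MC903 and in 1 of 11 with oxazolone day 10, against 1 of 107 in untreated skin. The sum joins unlike cells: 10 or more Cst6 UMIs alone were found in 9 MC903 cells and in 33 untreated ones, and 10 or more Defb6 UMIs alone in 2 MC903 cells and in 104 untreated ones. With oxazolone day 10 these were 2 cells for Cst6 and 7 for Defb6. Cells with at least 10 Krt17 UMIs were rich in sebaceous genes in 0 of 38 cases with oxazolone day 10 and in 3 of 26 in untreated skin. Cells in neither class made up 75 of 108 with oxazolone day 10, 1 of 3 with oxazolone day 16, 20 of 48 with MC903 and 81 of 414 in untreated skin.

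**Figure D2:**
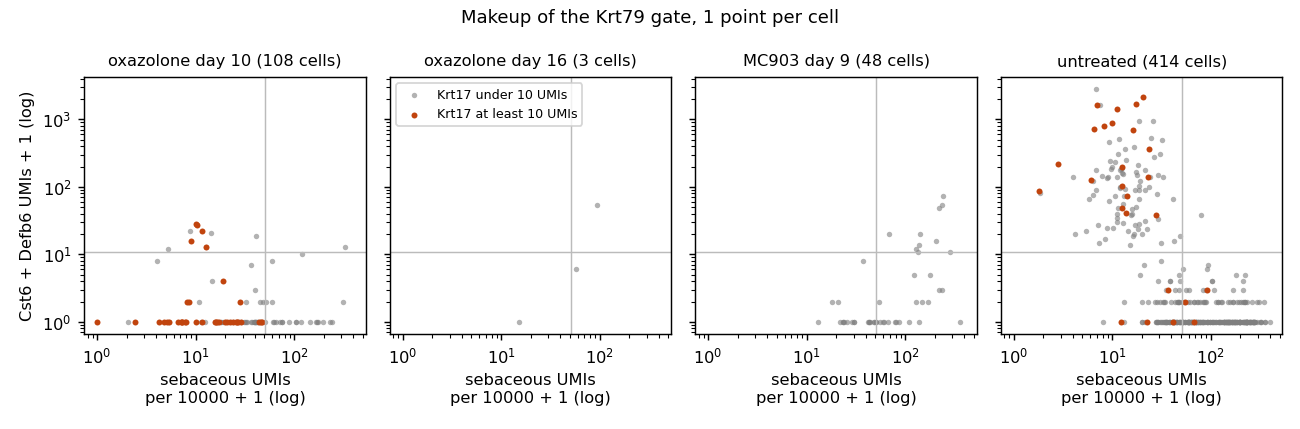
Each point is 1 Krt79-gated cell, with UMIs of 14 sebaceous gland genes per 10000 UMIs (x axis, log scale, 1 added) and UMIs of Cst6 and Defb6 together (y axis, log scale, 1 added), in 1 panel per library. Grey lines mark 50 sebaceous UMIs per 10000 and 10 UMIs of Cst6 and Defb6. In untreated skin 107 cells lie above the horizontal line and nearly all to the left, whereas the 10 such MC903 cells lie to the right. Cells with at least 10 Krt17 UMIs (38 with oxazolone day 10, 26 in untreated skin) lie mostly to the left.

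Krt79 stood at 1059, 922 and 1039.6 CPM in the treated libraries and at 1125 CPM in untreated skin, a level that the rule keeps high. Defb6 had 44.2, 198 and 17.2 CPM in the treated libraries (oxazolone day 10, oxazolone day 16, MC903), against 2019 CPM in untreated skin. Cst6 had 19.8, 96.2 and 83.8 CPM, against 867 CPM in untreated skin. Both were thus lower in the sums of every treated library. For Cst6 with MC903 the direction depends on the weighting and on the cells kept: with every cell weighing the same, its log2 ratio over untreated was 0.041, and without cells with 10 or more UMIs of Cst6 plus Defb6 it was 0.38. An MC903 cell with only 1602 UMIs held 71 of the Cst6 UMIs, and such a cell weighs far more when every cell counts the same. Krt17 had 704, 0 and 8.25 CPM in the treated libraries and 135 CPM in untreated skin, where the 0 of oxazolone day 16 comes from 3 cells. Lrig1, a growth factor receptor antagonist that marks the junctional zone, had 276, 192 and 122 CPM, against 131 CPM in untreated skin. Plet1, a surface protein of the same zone, had 65.9, 70.9 and 24.7 CPM, against 183 CPM in untreated skin. Gata6, a transcription factor of the sebaceous duct, had 12.2, 25.3 and 8.59 CPM, against 30.4 CPM in untreated skin.

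Krt79-gated cells were then compared with the other keratinocyte gates inside the same libraries, with libraries of different treatments as the replicates. The spread thus also holds any change of the gate difference with treatment. The Krt79 and Krt5 Krt14 gates each held at least 10 cells in 3 libraries. The Krt79 and Lgr5 Lhx2 gates did so in 2. UMIs were summed per library and gate and tested with edgeR's quasi-likelihood test with library as a block and Benjamini-Hochberg adjustment over 12171 genes. All 14 sebaceous gland genes were higher in the Krt79 gate in both comparisons at an adjusted p under 0.05. Both other gates required fewer than 2 Krt79 UMIs and at least 20 UMIs of Krt5 plus Krt14, limits that the Krt79 gate does not share. The direction for genes that go with these can thus follow in part from the gates, which was not tested. The gene lists were chosen with earlier results of these data known, so this difference is no independent evidence. The background was 749 genes higher (6.15%) and 498 lower (4.09%) against the Krt5 Krt14 gate, and 1377 higher (11.3%) and 1347 lower (11.1%) against the Lgr5 Lhx2 gate. The median log2 fold change of the sebaceous list was 3.16 against the Krt5 Krt14 gate and 5.39 against the Lgr5 Lhx2 gate, where the medians of all tested genes were -0.03 and -0.02.

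Among the sebaceous genes, Cidea, a lipid droplet protein that enlarges droplets, had 102 CPM in the Krt79 gate and 2.91 CPM in the Krt5 Krt14 gate with oxazolone day 10, 663 and 9.62 CPM with MC903, and 345 and 6.39 CPM in untreated skin. It was thus higher in the Krt79 gate in all 3 libraries, with a log2 fold change of 5.83 (SE 0.22, edgeR adjusted p = 0.000276). Elovl3, a fatty acid elongase of sebocytes, had 82.0 CPM in the Krt79 gate and 0.364 CPM in the Krt5 Krt14 gate with oxazolone day 10, 338 and 1.37 CPM with MC903, and 100.4 and 1.37 CPM in untreated skin, a log2 fold change of 6.82 (SE 0.31, edgeR adjusted p = 0.000439). Scd1, a stearoyl-CoA desaturase, had a log2 fold change of 4.64 (SE 0.22) against the Krt5 Krt14 gate and of 5.28 (SE 0.27) against the Lgr5 Lhx2 gate. The smallest difference of the list against the Krt5 Krt14 gate was 0.87. Pparg, the nuclear receptor that drives sebocyte maturation, passed against that gate by little, at 1.90 (SE 0.45, edgeR adjusted p = 0.0464), and was 5.50 (SE 0.65) higher than in the Lgr5 Lhx2 gate.

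Outside the sebaceous list, the genes higher than in the Krt5 Krt14 gate included Fa2h, a fatty acid hydroxylase (log2 fold change 6.95, SE 0.67), Cd36, a fatty acid receptor (6.72, SE 0.44), Sdr16c6, a short-chain dehydrogenase (6.11, SE 0.39), Acacb, an acetyl-CoA carboxylase (5.89, SE 0.39), and Fabp5, a fatty acid binding protein (5.30, SE 0.97). Acer1, an alkaline ceramidase of skin, was higher at 6.50 (SE 0.46). It had 27.0, 88.3 and 103 CPM in the Krt79 gate (oxazolone day 10, MC903 and untreated) and was at 0 in the Krt5 Krt14 gate of both treated libraries and at 1.60 CPM in that of untreated skin. Against the Lgr5 Lhx2 gate the fold changes were larger for Sdr16c6 (10.01, SE 0.63), Fa2h (8.30, SE 0.92) and Elovl3 (8.25, SE 0.43). Nrg4, a ligand of the receptor ErbB4, had 117, 98.3 and 152 CPM in the Krt79 gate and 1.09, 8.93 and 6.01 CPM in the Krt5 Krt14 gate, a log2 fold change of 4.81 (SE 0.42, edgeR adjusted p = 0.00364).

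The upper follicle genes did not stand out as a list. Of 13 tested, Cst6 (log2 fold change 4.96, SE 0.50, edgeR adjusted p = 0.00631) and Defb6 (3.95, SE 0.43, adjusted p = 0.00649) were higher than in the Krt5 Krt14 gate and Fst, a secreted activin antagonist, was lower (-2.00, SE 0.43). Against the Lgr5 Lhx2 gate, Cst6 and Defb6 were higher, and Fst and Sox9, a transcription factor of the follicle, were lower. Krt17 did not pass in either comparison, at -1.27 (SE 0.86, adjusted p = 0.37) and -2.50 (SE 0.88, adjusted p = 0.086). Lrig1, Plet1 and Gata6 did not pass in either. The list median was -0.43 against the Krt5 Krt14 gate and -0.17 against the Lgr5 Lhx2 gate. Cst6 and Defb6 were among the 4 markers proposed for these cells with earlier results of these data known, so their difference is no independent evidence.

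**Figure D3:**
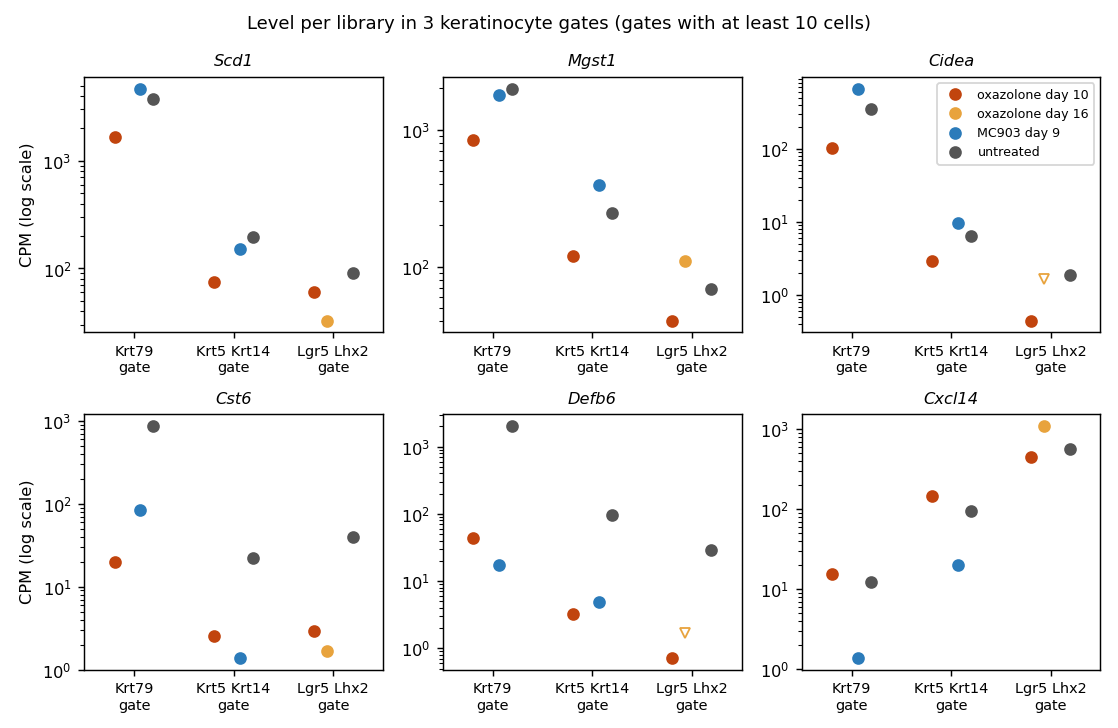
Level of 6 genes (CPM, log scale) in the Krt79, Krt5 Krt14 and Lgr5 Lhx2 gates, 1 point per library with at least 10 cells in that gate. Open triangles mark 0 UMIs, drawn at 3 UMIs. For Scd1, Mgst1, Cidea, Cst6 and Defb6 the Krt79 gate lies above the other gates within each library, and for Cxcl14 it lies below them.

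Genes of basal epidermis and of the bulge were lower in the Krt79 gate. Both other gates required at least 20 UMIs of Krt5 plus Krt14, and the Lgr5 Lhx2 gate also at least 2 of Lgr5 plus Lhx2. The Krt79 rule sets no such minimum and limits Lgr5 and Lhx2. The direction for genes that go with these can thus follow in part from the gates, which was not tested. Of 10 basal epidermis genes tested without the gate genes Krt5 and Krt14, 7 were lower than in the Krt5 Krt14 gate, among them Col17a1, a hemidesmosome collagen (-2.06, SE 0.33, edgeR adjusted p = 0.0171), and 9 were lower than in the Lgr5 Lhx2 gate. Of 11 bulge and hair germ genes, 6 were lower than in the Krt5 Krt14 gate and 8 lower than in the Lgr5 Lhx2 gate. Krt15, a keratin of basal and bulge cells, was among them in both (-1.79, SE 0.29, and -2.56, SE 0.32). Cxcl14, an epithelial chemokine, had 15.6 CPM in the Krt79 gate and 144 CPM in the Krt5 Krt14 gate with oxazolone day 10, 1.37 and 19.9 CPM with MC903, and 12.4 and 94.5 CPM in untreated skin. Its log2 fold change was -3.09 (SE 0.25, edgeR adjusted p = 0.00262), and against the Lgr5 Lhx2 gate it was -5.12 (SE 0.27). Kitl, the ligand of the receptor Kit of melanocytes and mast cells, was lower by a log2 fold change of -2.41 (SE 0.30) and -2.46 (SE 0.32).

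Among immune genes, Cd274 (PD-L1), an inhibitory ligand for T cells, had 13.0, 24.0 and 32.8 CPM in the Krt79 gate (oxazolone day 10, MC903 and untreated), against 3.64, 2.06 and 1.83 CPM in the Krt5 Krt14 gate. It was higher by a log2 fold change of 3.42 (SE 0.54, edgeR adjusted p = 0.0165) and, against the Lgr5 Lhx2 gate, of 3.26 (SE 0.57, adjusted p = 0.0115). Lcn2, an antimicrobial siderophore binder, was higher in both comparisons (1.80, SE 0.30, and 3.37, SE 0.42). Cd1d1, which presents lipids to natural killer T cells, was higher in both too (2.33, SE 0.43, and 2.04, SE 0.51). Il33, an alarm cytokine of epithelium, was lower than in the Krt5 Krt14 gate (-2.50, SE 0.46, adjusted p = 0.0254) and did not pass against the Lgr5 Lhx2 gate (-0.48, SE 0.50). Of the 17 antigen presentation genes, 16 were tested and Cd274 was the only one to pass in either comparison.

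These comparisons rest on few libraries, and without either library that holds both gates the one against the Lgr5 Lhx2 gate has a single library, whose spread is then taken from the other gates and libraries of the fit. Without the untreated library, 113 genes were higher and 53 lower than in the Krt5 Krt14 gate, without MC903 303 and 265, and without oxazolone day 10 452 and 322. Against the Lgr5 Lhx2 gate, 176 and 215 genes passed without the untreated library and 485 and 613 without oxazolone day 10. The number of sebaceous genes called against the Krt5 Krt14 gate was then 10, 11 and 12 of 14, and against the Lgr5 Lhx2 gate 13 without the untreated library and 14 without oxazolone day 10, and all 14 had a positive fold change in each case. Without cells holding 3 or more fibroblast marker UMIs, 12 of 13 tested sebaceous genes passed against the Krt5 Krt14 gate and 13 of 13 against the Lgr5 Lhx2 gate. With no library term, 6 of 14 passed against the Krt5 Krt14 gate and 14 of 14 against the Lgr5 Lhx2 gate. Without the untreated library, 5 basal and 2 bulge genes were lower than in the Krt5 Krt14 gate, and 2 basal and 5 bulge genes lower than in the Lgr5 Lhx2 gate. With no library term, 3 basal and 0 bulge genes were lower than in the Krt5 Krt14 gate, 9 basal and 4 bulge genes were lower than in the Lgr5 Lhx2 gate, and Cst6 and Defb6 passed in neither comparison.

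With oxazolone at day 10, the Krt79-gated cells held more transcripts of stress keratins, cell cycle genes and antigen presentation genes than in untreated skin, and fewer of Defb6, Cst6 and sebaceous gland genes. Of 11883 genes that reached 30 UMIs over both libraries, 904 were at least 2-fold higher (7.61%) and 888 at least 2-fold lower (7.47%), with a median log2 ratio of 0.08. In the Krt5 Krt14 gate 871 of 12695 measured genes were higher and 1259 lower, and in the Lgr5 Lhx2 gate 1072 of 12726 were higher and 1014 lower. Since the makeup of the Krt79 gate differed, each group is also given within the sebaceous-rich cells (23 with oxazolone day 10 and 227 in untreated skin), where 461 of 10034 measured genes were at least 2-fold higher (4.59%) and 1053 lower (10.5%). In the Krt5 Krt14 and Lgr5 Lhx2 gates of these libraries, 6 and 4 of 8 stress keratin and alarm S100 genes were higher. Cell cycle genes were higher in 5 of 16 and 14 of 16 there, and antigen presentation genes in 5 of 16 and 5 of 15. None of these was lower in either gate. Sebaceous gland genes were lower in 9 of 11 and 3 of 9, with none higher, and Cst6 and Defb6 were lower in both gates. These differences were thus not particular to the Krt79 gate.

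Of 8 measured stress keratin and alarm S100 genes, 6 were at least 2-fold higher and none lower, with a median log2 ratio of 3.24. Krt6a, a wound keratin, had 289 CPM with oxazolone day 10 and 6.78 CPM in untreated skin, a log2 ratio of 5.41 (interval 5.05 to 5.79), and Krt16, its partner, had 30.2 and 1.75 CPM (4.11), with 42% of its oxazolone UMIs in 1 cell. Krt17 had a log2 ratio of 2.38 (2.28 to 2.47). Within sebaceous-rich cells Krt6a had 1 UMI in each library and Krt16 had none, so these keratins lay in the other Krt79-gated cells. S100a8 and S100a9, subunits of calprotectin, had 66.7 and 45.2 CPM with oxazolone day 10, against 0.719 and 0.205 CPM in untreated skin. Both are also leading neutrophil genes. S100a8 had a UMI in 62.0% of Krt79-gated cells with oxazolone day 10 and in 46.7% of fibroblast-gated cells of that library. After thinning every cell to 5000 UMIs these shares were 26.9% and 11.04%. S100a9 stood at 45.9 CPM in fibroblast-gated cells, no lower than in the Krt79 gate, so transcripts of the cells and free RNA cannot be told apart. It is counted among the 6 higher genes of the list.

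Among genes past both limits for naming, which are 100 UMIs in whichever library is higher and a UMI in 20% of its cells, Cstdc5 and Stfa1, of the stefin family of protease inhibitors, had the 2 highest ratios. Cstdc5 had 403 CPM with oxazolone day 10 and 0.205 CPM in untreated skin, a log2 ratio of 10.94 (9.08 to 13.98) that rests on 2 untreated UMIs. It had a UMI in 56.5% of Krt79-gated cells with oxazolone day 10 and in 1.39% of fibroblast-gated cells of that library. In the 3 cells of oxazolone day 16 it had 238 CPM, and with MC903 51.5 CPM, of which 71% came from 1 cell. Stfa1 had 54.2 CPM with oxazolone day 10 and 0.103 CPM in untreated skin. These genes are near-identical copies of each other, so how the counts fall among them is uncertain. Gjb2, the gap junction protein connexin 26, had 33.3 CPM with oxazolone day 10 and 0.822 CPM in untreated skin (5.34), and Fscn1, an actin bundling protein, 30.2 and 1.64 CPM (4.20).

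Antigen presentation genes were higher, 9 of 16 measured by at least 2-fold against 1 lower, with a median log2 ratio of 1.24. H2-K1, a class I heavy chain, had 749 CPM with oxazolone day 10 and 217 CPM in untreated skin, a log2 ratio of 1.79 (1.71 to 1.87). B2m, the class I light chain, had 799 and 288 CPM (1.47), and Psmb9, an immunoproteasome subunit, 47.1 and 8.94 CPM (2.40). Within sebaceous-rich cells 7 of 14 were higher and none lower, with a median of 1.01, and H2-K1 had 862 and 181 CPM there. Of 9 measured interferon response genes 5 were higher and none lower, with a median of 1.70. In the Krt5 Krt14 gate 7 of 9 were higher and 1 lower (1.37), and in the Lgr5 Lhx2 gate 8 of 14 and 1 (1.34). This difference was thus not particular to the Krt79 gate. Within sebaceous-rich cells 1 of 6 was higher and 1 lower (0.36). Cxcl9, an interferon-induced chemokine, had 18.8 CPM with oxazolone day 10 and 0.411 CPM in untreated skin (5.51), of which 1 cell carried 46% of the oxazolone UMIs, and Cxcl10 had 28.6 and 5.85 CPM (2.29).

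Of 16 cell cycle genes, 14 were at least 2-fold higher and none lower, with a median log2 ratio of 1.68. Mki67, the proliferation antigen, had 217 CPM with oxazolone day 10 and 67.4 CPM in untreated skin (1.68, interval 1.53 to 1.84). It had a UMI in 35.2% of cells with oxazolone day 10 and in 12.7% of untreated cells after thinning to 5000 UMIs. Within sebaceous-rich cells 2 of 14 were higher and 3 lower, with a median of 0.10, so the difference was not seen there. No ratio was computed for the other Krt79-gated cells alone. The part of the differing makeup in the ratio over all cells was not tested. Basal epidermis genes had a median of 0.65 in all cells, with Krt5 at 1306 CPM with oxazolone day 10 and 369.9 CPM in untreated skin, and -0.06 within sebaceous-rich cells.

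Sebaceous gland genes were lower, 7 of 14 by at least 2-fold and none higher, with a median log2 ratio of -1.06. Scd1 had 1658 CPM with oxazolone day 10 and 3779 CPM in untreated skin (-1.19, interval -1.23 to -1.15), Cidea 102 and 345 CPM (-1.77), and Apoc1, an apolipoprotein, 709 and 1916 CPM (-1.43). The sebaceous-rich cells are defined by the same 14 genes, so their smaller number is no separate evidence. Within these cells, which the list itself chose, 2 of 14 were higher and 2 lower, with a median of -0.12. Defb6 had a log2 ratio of -5.51 (-5.74 to -5.29) over all cells, and 1.21 within sebaceous-rich cells, where it had 27.6 CPM with oxazolone day 10 and 12.0 CPM in untreated skin. Cst6 had -5.45 over all cells and 0.03 within sebaceous-rich cells. Both values within sebaceous-rich cells rest on few UMIs. The sebaceous-rich cell with the most Defb6 UMIs held 9 with oxazolone day 10 and 37 in untreated skin. Paqr7, a membrane progestin receptor, had 5.55 CPM with oxazolone day 10 and 145 CPM in untreated skin (-4.70), and within sebaceous-rich cells 4.60 and 226 CPM (-5.62), so it was lower in both. Akr1c18, a steroid dehydrogenase, had 197 and 1477 CPM (-2.91).

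All 6 fibroblast markers were at least 2-fold lower with oxazolone day 10 in the Krt79 gate, such as Dcn with 17.5 CPM, against 395 CPM in untreated skin. Among 17 genes that respond to tissue dissociation, 11 were lower and none higher, with a median log2 ratio of -1.28, and within sebaceous-rich cells 14 were lower (-1.71). Fos, an immediate early gene, had 253 CPM with oxazolone day 10 and 1011 CPM in untreated skin (-2.00), and Atf3 66.9 and 426 CPM (-2.67). In the Krt5 Krt14 and Lgr5 Lhx2 gates 13 of the 17 dissociation genes were lower and none higher. The part of these genes in the other differences was not tested.

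**Figure D4:**
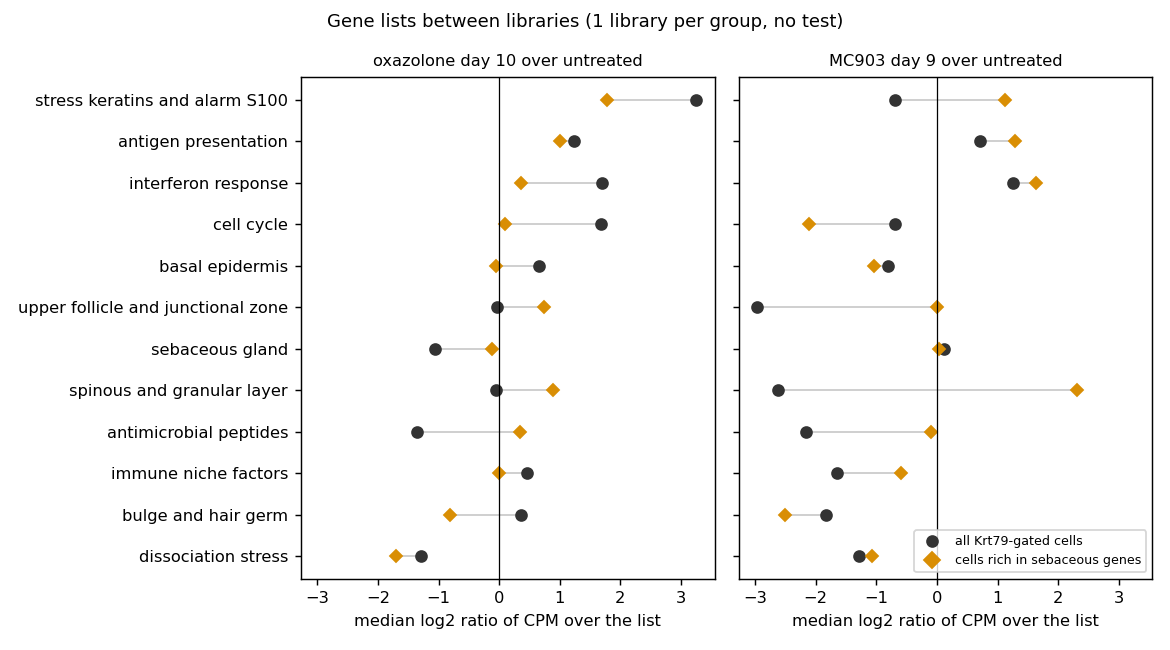
Median log2 ratio of CPM for 12 gene lists, oxazolone day 10 over untreated (left) and MC903 day 9 over untreated (right), over all Krt79-gated cells (dark circles) and within cells rich in sebaceous genes (orange diamonds). Both pairs share the untreated library, and the sebaceous list itself chose the sebaceous-rich cells. With oxazolone the cell cycle median is 1.68 in all cells and 0.10 in sebaceous-rich ones, and with MC903 the upper follicle median is -2.96 in all cells and -0.00 in sebaceous-rich ones.

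With MC903, upper follicle, spinous and immune niche genes were mostly lower over all Krt79-gated cells than in untreated skin, and the median ratio of the sebaceous gland genes was near 0. Cyp24a1 was counted in the MC903 cells and not in untreated ones. Its summed level was no higher than in fibroblast-gated cells, though a larger share of cells held a UMI. Of 11640 measured genes, 485 were at least 2-fold higher (4.17%) and 1600 at least 2-fold lower (13.7%), with a median log2 ratio of -0.09. In the Krt5 Krt14 gate 593 of 12416 measured genes were higher and 2393 lower, with a median of -0.15. The excess of lower genes was thus not particular to the Krt79 gate. The gene lists below are given for the Krt79 gate only, so they are not shown to be particular to it. Within sebaceous-rich cells (28 with MC903 and 227 in untreated skin), 554 of 10316 measured genes were at least 2-fold higher (5.37%) and 1234 lower (12.0%). The MC903 counts come from 48 cells, so the share of a gene's UMIs in its top cell is given where it is high. The file headers name a different version of the counting software for these 2 libraries, which cannot be told apart from the treatment.

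Cyp24a1, the enzyme that inactivates vitamin D and the classical target of its receptor, had 57.0 CPM with MC903 (166 UMIs, 39.6% of cells) and no UMI in the Krt79 gate of untreated skin. Set against 3 UMIs in untreated skin, its log2 ratio was at least 7.53. It was also at 0 in the Krt79 gate of both oxazolone libraries. Its level with MC903 was 406 CPM in the Krt5 Krt14 gate, with a UMI in 83.3% of cells, and 60.8 CPM in fibroblast-gated cells, with a UMI in 10.1%. Median UMIs per cell in those gates were 39450.0 and 22775.5. After thinning to 5000 UMIs, the shares of cells with Cyp24a1 were 10.6% in the Krt79 gate, 55.6% in the Krt5 Krt14 gate and 6.86% in fibroblast-gated cells. Its summed level in the Krt79 gate was thus no higher than in fibroblast-gated cells, whereas the share of cells with a UMI was higher. The sum over fibroblast-gated cells can hold transcripts of their own. The part of free RNA in the Krt79 gate was not tested. Fbp1, a gluconeogenic enzyme of the vitamin D list, had 40.5 CPM with MC903 and 1.03 CPM in untreated skin, a log2 ratio of 5.30 (4.37 to 6.40). It had a UMI in 77.1% of Krt79-gated MC903 cells and in 0.216% of fibroblast-gated ones. Vdr, the vitamin D receptor, had 43.6 CPM with MC903 and 83.3 CPM in untreated skin (-0.93). Of 7 measured genes of that list, 2 were higher and 1 lower, with a median of 0.07.

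Sebaceous gland genes had a median log2 ratio of 0.11, with 2 of 14 higher and 2 lower. Elovl3 had 338 CPM with MC903 and 100.4 CPM in untreated skin (1.75, interval 1.62 to 1.88), and Awat2, a wax ester synthase, 41.9 and 13.97 CPM (1.59). Dgat2, which makes triglycerides, had 36.1 CPM with MC903 and 116 CPM in untreated skin (-1.69), and Mc5r, the melanocortin receptor of sebocytes, 18.9 and 74.4 CPM (-1.98). Scd1 had 4667 CPM with MC903 and 3779 CPM in untreated skin, and Pparg 479 and 502 CPM. The share lower in the list, 2 of 14, is close to that over all measured genes.

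Among the 10 highest genes with MC903, Ces4a, a carboxylesterase, had 123 CPM with MC903 and 1.23 CPM in untreated skin (6.64, interval 5.82 to 7.61), with a UMI in 66.7% of MC903 cells and 2.17% of untreated ones, against 0.0719% of fibroblast-gated MC903 cells. Elovl4, an elongase for very long fatty acids of the skin barrier, had 557 CPM with MC903 and 8.73 CPM in untreated skin (5.99, 5.68 to 6.33), of which 1 cell carried 32% of the MC903 UMIs. In the Krt5 Krt14 gate of MC903 it had 13.0 CPM. Cyp17a1, a steroid hydroxylase, had 148 CPM with MC903 and 2.36 CPM in untreated skin (5.97), and also 30.2 CPM with oxazolone day 10. Rarres1, a retinoic acid responsive gene, had 128 CPM with MC903 and 4.01 CPM in untreated skin, with a UMI in 30 of 48 MC903 cells and 29 of 414 untreated cells. Pctp, a phosphatidylcholine carrier, had 71.1 CPM with MC903 and 0.514 CPM in untreated skin (7.11), with 39% of the MC903 UMIs in 1 cell. Cd36 had 234 CPM with MC903 and 20.7 CPM in untreated skin (3.50), Fa2h 1159 and 269 CPM (2.11) and Fabp5 8259 and 1444 CPM (2.52). Lcn2 had 299 CPM with MC903 and 16.4 CPM in untreated skin (4.19), with 38% of the MC903 UMIs in 1 cell. Within sebaceous-rich cells the log2 ratio was 6.43 for Ces4a, 6.86 for Elovl4, 8.32 for Pctp, 6.04 for Rarres1, 5.55 for Cyp17a1 and 4.85 for Lcn2.

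Of 12 measured upper follicle genes, 10 were at least 2-fold lower with MC903 and none higher, with a median log2 ratio of -2.96. Defb6 had a log2 ratio of -6.88 (-7.31 to -6.48), Krt17 of -4.04 (-4.68 to -3.46) and Plet1 of -2.88 (-3.24 to -2.54). Within sebaceous-rich cells the list median was -0.00, with 2 of 10 higher and 3 lower. Cst6 turned direction there: its log2 ratio was -3.37 over all cells and 3.93 within sebaceous-rich cells, with 120 CPM (235 UMIs) with MC903 and 7.86 CPM (48 UMIs) in untreated skin. At least 10 Cst6 UMIs were found in 9 of the 28 sebaceous-rich MC903 cells and in 0 of 227 such untreated cells. Plet1 stayed lower within sebaceous-rich cells, at 7.13 CPM with MC903 and 73.2 CPM in untreated skin.

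Spinous and granular layer genes were lower, 10 of 13 against 2 higher, with a median log2 ratio of -2.63. The 2 higher ones were Dmkn, a secreted protein of differentiating epidermis, with 572 CPM with MC903 and 80.8 CPM in untreated skin (2.82), and Sbsn with 353 and 109 CPM (1.70). Calm4, a calcium binding protein, had 1 UMI with MC903 and 107 CPM in untreated skin. Dmkn was also higher with oxazolone day 10, at 430.1 CPM. Within sebaceous-rich cells the list median was 2.31, with 4 of 6 higher and none lower. Bulge and hair germ genes were lower in 8 of 11 (median -1.83), and Krt15 had 15.8 CPM with MC903 and 768 CPM in untreated skin (-5.60). Basal epidermis genes were lower in 3 of 12 (median -0.80), and within sebaceous-rich cells in 6 of 11 (-1.04).

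The steroid dehydrogenase Akr1c18 had 14.8 CPM with MC903 and 1477 CPM in untreated skin, a log2 ratio of -6.64 (-7.11 to -6.21). It had a UMI in 20.8% of MC903 cells and in 89.4% of untreated cells, although the MC903 cells were sampled more deeply, and in 1.58% and 7.70% of the fibroblast-gated cells of these libraries. Within sebaceous-rich cells its log2 ratio was -7.07, with 13.2 and 1773 CPM. Adgrl3, an adhesion receptor, had no UMI with MC903 and 215 CPM in untreated skin, a log2 ratio of at most -7.70 against 3 MC903 UMIs, whereas it had 192 CPM with oxazolone day 10. Its transcripts lay mostly outside sebaceous-rich cells, which had 8.84 CPM in untreated skin.

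Cell cycle genes were lower in 5 of 16 with MC903 and higher in none, with a median log2 ratio of -0.69, and within sebaceous-rich cells 11 of 13 were lower (-2.11). Antigen presentation genes had a median of 0.70, with 1 of 16 higher and 4 lower. The 4 lower ones were the class II genes H2-Aa, H2-Ab1, H2-Eb1 and Cd74, and H2-D1, a class I heavy chain, was the higher one, with 401 CPM with MC903 and 154 CPM in untreated skin (1.38, interval 1.27 to 1.49). Within sebaceous-rich cells 9 of 15 were higher and the same 4 class II genes lower, with a median of 1.28. Of 7 measured interferon response genes 4 were higher and 1 lower, but 1 cell carried 91% of the MC903 UMIs of Isg15 and 96% of those of Ifi27l2a, and without cells with fibroblast marker UMIs the list median was -0.23, against 1.25 with all cells. Single cells likewise carried 98% of the MC903 UMIs of Stfa1. Dissociation response genes were lower in 11 of 17 and higher in none (-1.29).

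**Figure D5:**
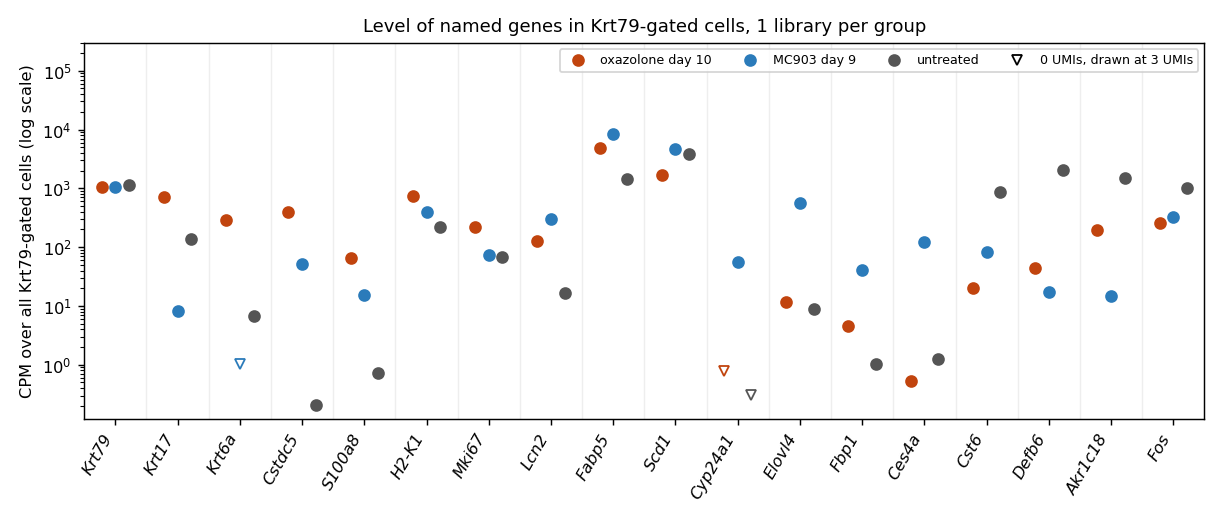
Level of 18 genes (CPM, log scale) over all Krt79-gated cells, with oxazolone day 10, MC903 day 9 and untreated from left to right within each gene. Open triangles mark 0 UMIs, drawn at 3 UMIs. Krt79, set by the rule, is level across the 3 libraries (1059, 1039.6 and 1125 CPM), Krt17 and Krt6a are highest with oxazolone, and Cyp24a1 has UMIs only with MC903 (57.0 CPM).

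Of genes through which epithelium signals to immune cells, Tslp, an alarm cytokine, had 0, 1 and 1 UMIs in the treated libraries and 1 in the untreated one. Il33 had 0.529, 5.07 and 0.344 CPM in the treated libraries and 7.29 CPM in untreated skin. Il7, a lymphocyte survival factor known from hair follicles, had 20.4, 5.07 and 3.44 CPM, against 32.7 CPM in untreated skin. With MC903 its log2 ratio was -3.25 (-4.32 to -2.35), and within sebaceous-rich cells it was -4.21, which rests on 3 MC903 UMIs. With oxazolone day 10 its log2 ratio was -0.68 over all cells, and 1 UMI was left in sebaceous-rich cells, against 172 UMIs in those of untreated skin. Of 16 measured immune niche genes, 10 were lower and 1 higher with MC903 (median -1.64), and 3 were lower and 2 higher with oxazolone day 10 (median 0.45). Il34, a growth factor for Langerhans cells, had 25.7, 0 and 1.37 CPM in the treated libraries and 13.6 CPM in untreated skin. Il15 had 6.08, 0 and 0.687 CPM, against 7.40 CPM in untreated skin. Skint3, a gene of the family that selects epidermal T cells, had 12.2, 70.9 and 0 CPM, against 101 CPM in untreated skin.

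Itgb8 and Itgb6, integrin subunits that activate TGF-beta, had 96.3, 50.7 and 30.9 CPM (Itgb8) and 7.14, 15.2 and 6.53 CPM (Itgb6) in the treated libraries, against 52.6 and 5.85 CPM in untreated skin. Tgfb2 had 4.23, 0 and 3.09 CPM, against 10.8 CPM in untreated skin. Il13ra1, a receptor chain for IL-13, had 63.0, 101 and 41.9 CPM, against 34.6 CPM in untreated skin. Il4ra, its partner chain, had 11.6, 5.07 and 1.37 CPM, against 11.9 CPM in untreated skin, and with MC903 its log2 ratio of -3.12 (-5.02 to -1.72) rests on 4 UMIs. Of 26 measured receptor genes, 3 were higher and 1 lower with oxazolone day 10 (median 0.22), and 1 was higher and 4 were lower with MC903 (median -0.07). These receptor counts were near the shares over all measured genes, which were 7.61% higher and 7.47% lower with oxazolone day 10. With MC903 those shares were 4.17% and 13.7%. Within sebaceous-rich cells 1 of 22 receptor genes was higher and 6 were lower with oxazolone day 10 (all measured genes: 4.59% and 10.5%). With MC903 3 of 23 were higher and 4 lower there (all measured genes: 5.37% and 12.0%). Among chemokines, Ccl20, which draws CCR6-bearing cells, had 1.85, 0 and 0 CPM, against 5.75 CPM in untreated skin. Ccl2 had 5.29, 30.4 and 0.687 CPM, against 16.8 CPM in untreated skin, where 1 cell carried 57% of its UMIs. Ccl8 had 5.55, 15.2 and 1.37 CPM, against 1.03 CPM in untreated skin.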

How the data were processed

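Single-cell suspensions of pooled skin were made into 10x Genomics 3′ v3.1 libraries, per the labels' protocols. The deposited matrices hold whole-number UMI counts per gene and barcode, made by the authors with Cell Ranger 8.0 on mm10, per the submitters' processing notes. The file headers name version 7.2.0 for oxazolone day 10 and untreated and 8.0.0 for MC903 and oxazolone day 16. Each matrix lists 32285 genes. All steps below started from these counts.

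The rule in the opening was applied to every barcode, and other gates were set in the same way: Krt5 and Krt14 for basal-type cells, Lgr5 and Lhx2 for lower follicle cells, Krt1 and Krt10 for suprabasal cells, and fibroblast markers. The members, gene lists and tests were chosen with earlier results of these data known. No doublets were removed, and leaving out the cells with the highest Scrublet scores (in scanpy 1.11.5) was an alternative. Their share was preset at 0.8% per 1000 cells kept in a library.

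UMIs were summed per library and gate. Between libraries, CPM of the sums were compared as log2 ratios with 95% intervals from the exact binomial distribution of the pair's UMIs, over genes with at least 30 UMIs in the pair. A gene was called at 2-fold, and a gene at 0 was set to 3 UMIs for a bound. With 3 cells, oxazolone day 16 gives values only, and no ratio was computed for it. Between gates, sums of at least 10 cells were tested with edgeR 4.0.16 (R 4.3.3), with filterByExpr, TMM scaling, library as a block and a threshold of 0.05 on adjusted p-values. This fit had 9 sums and 3 residual degrees of freedom. Genes used by the gates were left out of its counts. The Krt1 Krt10 gate held 8 cells in all and was not compared. DESeq2 1.42.0 was an alternative. Shares have exact Clopper-Pearson intervals. UMIs of pooled animals give counting error only, and animals within a pool could not be separated.

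Named genes are, per list and pair of libraries, at most 4 members with the largest ratios, the 10 highest and 10 lowest genes with at least 100 UMIs and a UMI in at least 20% of cells, and, between gates, list members and the 10 highest and 10 lowest genes past the threshold at a log2 CPM of at least 5. A preset set of markers and signalling genes is given in every library. Other list members, Cyp17a1, and values of a named gene in another pair were chosen after they were seen. The limits of 50 sebaceous UMIs per 10000 and of 10 UMIs of Cst6 and Defb6 or Krt17 were also set after the data were seen. Shares of cells with a UMI were repeated after thinning each cell to 5000 UMIs. Both procedures were tested on simulated data with known changes.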

Additional observations from a re-analysis of the deposited data

How the results depend on the processing

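No paired analysis was possible because each group has 1 library, so that groups share no replicate numbers. The comparisons between gates of the same libraries already carry library as a block. Cells sharing a library are no replicates, depth differed between libraries, and the oxazolone day 16 values rest on 3 cells. Alternatives that kept only sebaceous-rich cells, or left out cells with Cst6 and Defb6, the largest cell or Gm42418 were chosen after seeing the data, as was leaving out cells with fibroblast marker UMIs between gates.

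The Krt79-gated share of cells kept became 0.928% with oxazolone day 10 and 3.54% in untreated skin at 10 or more Krt79 UMIs, and 6.92% in untreated skin at 3 or more. At 5 Krt79 UMIs per 10000 it was 0.807% with oxazolone day 10, 0.729% with MC903 and 3.75% in untreated skin. Of keratin-positive barcodes it was 14.9%, 5.08% and 43.2% in the treated libraries and 24.4% in the untreated one.

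For oxazolone day 10 over untreated, 472 genes were higher and 500 lower at a minimum of 100 UMIs, 4545 and 1561 with no minimum, and 461 higher in sebaceous-rich cells only. For MC903 the counts were 255 and 884 at 100 UMIs, and 4624 higher with no minimum. Of the list medians and named ratios over all alternatives, 606 of 661 for oxazolone and 609 of 645 for MC903 kept their side of 2-fold. Those of at least 2-fold among them also kept their direction, whereas a change of sign among smaller values was not counted.

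Values under 2-fold that changed sign are not listed here. Values of at least 2-fold that turned direction with oxazolone were the melanocyte median (2.05 at 3 Krt79 UMIs, 0.36 without the highest doublet scores), Cst6 (0.033), Defb6 (1.21), the marker median (0.74) and the antimicrobial median (0.34) in sebaceous-rich cells, and Defb6 (0.36), Gata6 (1.82), the marker median (0.32) and the antimicrobial median (0.54) without cells with Cst6 and Defb6. With MC903 they were the chondrocyte median (0.066 at 10 Krt79 UMIs), Cst6 (0.041 with every cell weighing the same), the interferon median (-0.23 without fibroblast marker cells), Cst6 (3.93), Defb6 (1.09), the marker median (0.89), the spinous median (2.31) and the protease median (3.93) in sebaceous-rich cells, and Cst6 (0.38), Gata6 (1.89) and the muscle median (-3.70) without cells with Cst6 and Defb6. The cause was not tested.

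Against the Krt5 Krt14 gate, 1174 genes were higher and 1031 lower with no expression filter, 87 and 19 with no library term, and 853 lower at 10 Krt79 UMIs, and with no library term 6 of 14 sebaceous genes passed. Leaving out 1 library gave 113 to 762 higher and 53 to 492 lower. Against the Lgr5 Lhx2 gate, 775 were lower with no library term, and leaving out 1 library gave 176 to 1487 higher and 215 to 1551 lower. DESeq2 called 798 higher and 683 lower against the Krt5 Krt14 gate, and 1177 and 1207 against the Lgr5 Lhx2 gate.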

Other observations

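Among 18 measured targets of the xenobiotic sensor AhR and the oxidative stress regulator NRF2, 6 were at least 2-fold higher and 2 lower in Krt79-gated cells with oxazolone day 10, with a median log2 ratio of 0.47. All measured genes were higher in 7.61% and lower in 7.47%, and in sebaceous-rich cells in 4.59% and 10.5%. Within sebaceous-rich cells 2 of 14 of these targets were higher and 5 lower, with a median of -0.01. Cyp1a1, a cytochrome induced by AhR, had 22.7 CPM with oxazolone day 10 and 4.62 CPM in untreated skin (2.30, interval 1.76 to 2.85), with all 86 oxazolone UMIs in sebaceous-rich cells. With MC903 it had 3.44 CPM. Gsta3, a glutathione transferase, had 25.7, 0 and 22.3 CPM in the treated libraries (oxazolone day 10, oxazolone day 16, MC903) and 174 CPM in untreated skin, and its log2 ratio within sebaceous-rich cells was -2.58 with oxazolone day 10 and -3.09 with MC903. In the Krt79 gate, 2 of 18 genes of this list were higher and 1 lower than in the Krt5 Krt14 gate, and 6 were higher and none lower than in the Lgr5 Lhx2 gate, by edgeR's quasi-likelihood test. Over all tested genes, 6.15% were higher and 4.09% lower against the Krt5 Krt14 gate, and 11.3% and 11.1% against the Lgr5 Lhx2 gate.

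Of the IL-4, IL-13 and STAT3 response genes, 1 of 10 measured was higher and 3 were lower with oxazolone day 10 (median -0.20), and 1 of 11 was higher and 3 were lower with MC903 (median -0.41). The shares over all measured genes were 7.61% higher and 7.47% lower with oxazolone day 10, and 4.17% and 13.7% with MC903. Socs1, an inhibitor of JAK signalling, had 10.6, 0 and 7.21 CPM in the treated libraries and 42.0 CPM in untreated skin. Cish, a target of STAT5, had 26.7, 40.5 and 8.93 CPM, against 75.2 CPM in untreated skin. Within sebaceous-rich cells the log2 ratio of Cish was -1.41 with oxazolone day 10 and -2.97 with MC903. Of 14 measured tight junction and desmosome genes, 1 was higher and 3 were lower with oxazolone day 10, and none was higher and 6 were lower with MC903. Within sebaceous-rich cells 1 of 11 of them was higher with MC903 and none lower. Abca12, which carries lipids into lamellar bodies of the skin barrier, had 52.4, 45.6 and 3.44 CPM in the treated libraries and 22.5 CPM in untreated skin.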
